A study of Mus musculus with 6 samples.

Results

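Developmental transcription factor genes outside the Hox clusters were more often lower than higher in Y641-F cells, set against Control cells. The members were the protein-coding genes of the count table named Pax, Sox, Tbx, Lhx, Dlx, Gata, Irx, Msx or Nkx with a number, the family of *Six3* and *Six5*, and the forkhead genes Foxa to Foxs with a single digit. *Foxa1* and *Gata3* were left out, and the naming rule uses no measured value, although the members were proposed with earlier results of these data known. This gave 133 of the 40205 genes in the table, in 11 families. Of these 133 genes, 76 passed the filter on low counts and were tested, and 57 did not. Of the 76 tested genes, 21 were lower in Y641-F cells (27.6%), 3 were higher (3.95%) and 52 were not called at an adjusted p under 0.05. Of all 21043 genes tested, 16.0% were lower and 15.6% were higher. Of the 15722 protein-coding genes among them, 18.6% were lower and 18.1% were higher. The lower genes included *Lhx5*, *Six3*, *Tbx1*, *Irx3*, *Six5*, *Foxj1*, *Foxo3* and *Foxo4*, and the higher genes were *Pax8*, *Lhx2* and *Foxn2*. 

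RNA was sequenced from 4T-1 cells, derived from a mammary carcinoma of the mouse and used by the authors as a model of triple-negative breast cancer, in 3 Y641-F and 3 Control libraries. Y641-F cells carried a retroviral MSCV construct of EZH2 with the Y641-F substitution in its catalytic domain, and Control cells carried the MSCV vector. The genotype label of the Control libraries is WT, and the replicates are described as separate batches of stable cells, so the p-values measure only the spread between such batches. On drug selection the methods hold 2 statements, one naming puromycin for all lines and the other puromycin for MSCV cells and hygromycin for Y641-F cells. If the drugs differed, drug and construct cannot be told apart in this comparison. Which species' EZH2 sequence the construct holds is not stated in the methods, and its reads need not be counted under mouse *Ezh2*, which had 3686, 3354 and 4196 counts in Y641-F libraries, against 3574, 4350 and 3644 counts in Control libraries. H3K27me3 was not measured in these libraries.

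The members encode DNA-binding proteins that set cell identity during embryonic patterning and organ formation. Polycomb repressive complex PRC2, with EZH2 as its methyltransferase, trimethylates H3K27. Promoters of developmental transcription factor genes rich in CpG are classical sites of this mark, and many of these genes are silent or barely transcribed in cells of another lineage. In the mammary gland, Sox, Fox and Gata factors have known roles in luminal and basal cell identity. FoxO factors act downstream of insulin and PI3K signalling on cell cycle arrest, stress resistance and atrophy genes.

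Library totals were 32509268 to 36429035 counts in Y641-F cells and 32955434 to 34881914 counts in Control cells. The summed counts of the 57 members under the filter were 24, 57 and 40 in the Y641-F libraries, against 49, 128 and 49 in the Control libraries, with Control replicate 2 highest. All 8 epithelial markers were tested, and 2 were higher and none lower in Y641-F cells (4 higher without Y641-F replicate 2). The summed level of the 9 haematopoietic markers was 9.84 to 12.4 CPM (counts relative to library size, with TMM factors) in Y641-F libraries and 8.24 to 22.6 CPM in Control libraries. Of the 8 tested, 7 had a log2 fold change below 0, with a median of -1.10. None was called by the quasi-likelihood test of edgeR, the main test here. The exact test of edgeR and the DESeq2 Wald test each called 1 lower. By the main test, 2 were lower without Control replicate 1 or 3, 1 was higher without Control replicate 2, and 3 of 9 were lower with no filter. *Ptprc*, the pan-leukocyte marker, had 13, 13 and 18 counts in Y641-F libraries, against 24, 85 and 22 in Control libraries. The summed level of the 7 fibroblast markers was 22.1 to 36.6 CPM in Y641-F libraries and 36.2 to 48.6 CPM in Control libraries, with 4 tested and only *Col1a1* called, as lower (2 were lower without Y641-F replicate 2), and *Lum* was at 0 in every library. The 7 endothelial markers summed to 4.82 to 6.32 CPM in Y641-F libraries and 5.81 to 6.88 CPM in Control libraries, with 5 tested and only *Emcn* called, as lower. The part of these marker levels in the results below was not tested. In bulk RNA, fewer cells expressing a gene and less RNA of it per cell cannot be told apart.

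The promoter table of RefSeq (assembly GRCm38.p6) held 113 windows for 91 of the 133 members, each from 250 bases before the start of transcription to 50 bases after it. The windows of 5 members are printed because these genes are the called members that differed at least 2-fold, with a call under every alternative processing and a single window in the table. Capitals mark the 6-base GC box GGGCGG or its reverse complement CCGCCC, which may overlap, and the start of transcription is the base after the first 250. Each window matched a single place in GRCm39, the build of the counts. *Pax8*, the only one of the 5 that was higher, is read from the minus strand at chr2:24365562-24365861. The lower genes are *Foxo3* (minus strand, chr10:42152642-42152941), *Irx3* (minus strand, chr8:92528233-92528532), *Msx3* (minus strand, chr7:139628952-139629251) and *Six5* (plus strand, chr7:18828219-18828518).
Pax8: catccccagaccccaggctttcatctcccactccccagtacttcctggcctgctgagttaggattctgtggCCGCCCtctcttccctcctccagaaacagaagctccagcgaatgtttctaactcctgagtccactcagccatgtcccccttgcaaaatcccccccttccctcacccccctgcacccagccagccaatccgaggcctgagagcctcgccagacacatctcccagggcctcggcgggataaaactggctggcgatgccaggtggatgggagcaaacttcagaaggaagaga
Foxo3: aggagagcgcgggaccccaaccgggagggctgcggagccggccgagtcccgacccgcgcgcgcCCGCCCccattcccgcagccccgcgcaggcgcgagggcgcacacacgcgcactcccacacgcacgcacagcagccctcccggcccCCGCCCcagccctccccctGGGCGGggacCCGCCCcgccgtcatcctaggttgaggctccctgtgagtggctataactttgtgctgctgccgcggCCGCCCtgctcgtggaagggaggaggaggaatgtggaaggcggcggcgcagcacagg
Irx3: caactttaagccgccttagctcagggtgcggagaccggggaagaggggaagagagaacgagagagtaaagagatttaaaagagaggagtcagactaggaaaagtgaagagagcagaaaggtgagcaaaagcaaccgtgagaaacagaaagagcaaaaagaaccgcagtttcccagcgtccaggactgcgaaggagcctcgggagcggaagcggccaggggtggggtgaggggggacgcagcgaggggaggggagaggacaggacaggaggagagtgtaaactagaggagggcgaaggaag
Msx3: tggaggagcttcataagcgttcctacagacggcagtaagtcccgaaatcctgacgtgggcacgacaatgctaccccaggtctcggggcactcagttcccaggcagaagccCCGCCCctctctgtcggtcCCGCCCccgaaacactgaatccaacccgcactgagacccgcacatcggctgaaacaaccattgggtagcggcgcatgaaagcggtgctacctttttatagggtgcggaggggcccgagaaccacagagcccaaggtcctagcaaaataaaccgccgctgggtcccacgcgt
Six5: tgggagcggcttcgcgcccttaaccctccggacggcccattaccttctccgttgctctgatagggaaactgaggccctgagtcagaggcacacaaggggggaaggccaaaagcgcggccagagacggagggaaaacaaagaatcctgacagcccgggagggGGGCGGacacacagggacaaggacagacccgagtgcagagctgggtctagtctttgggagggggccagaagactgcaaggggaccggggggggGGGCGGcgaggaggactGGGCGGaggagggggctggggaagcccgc

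The GC box was found 5 times in the *Foxo3* window, 3 times in *Six5*, 2 times in *Msx3*, 1 time in *Pax8* and 0 times in *Irx3*. The motif TATAAA, searched on the strand of the gene, was in none of the 5 windows. CpG was densest in *Foxo3*, with 35 CpG dinucleotides in 300 bases and an observed over expected ratio of 0.834. *Pax8* had 7 CpG and a ratio of 0.288, below the other 4 printed windows, whose ratios were 0.559 to 0.834. Windows not printed did not follow this split. Both windows of the higher gene *Lhx2* had high ratios, 0.885 and 0.835. The lower genes *Foxn3* and *Sox5* had ratios of 0.294 and 0.256. Over all 113 member windows, 64.6% had a ratio of at least 0.6, against 35.8% of the 32851 windows in the table. The share was 76.5% of the 17 windows of lower members, which came from only 13 of the 21 lower members. It was 66.7% of the 3 windows of higher members, which came from 2 genes. It was 56.8% of the 44 windows of 32 tested members without a call. Of members under the filter, it was 67.3% of 49 windows. Windows were counted, not genes, and *Sox6*, without a call, gave 6 of the 44. A GC box on either strand was in 64.6% of member windows and in 35.7% of all windows, and TATAAA was in 4.4% of member windows and in 8.3% of all windows. These are shares of letters in fixed windows, with no test.

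The largest difference among all members with counts in both groups was in *Lhx5*, a LIM-homeodomain factor of the developing forebrain. It had 3, 2 and 0 counts in the Y641-F libraries, against 210, 179 and 198 counts in the Control libraries. Its log2 fold change was -6.68 with a standard error of 0.42 and an adjusted p of 7.17e-07 (quasi-likelihood test of edgeR, Benjamini-Hochberg adjustment over all genes tested). *Lhx5* was well detected in Control cells, at 2.08 CPM per kilobase of exon, and at 0.0195 CPM per kilobase in Y641-F cells. The gene lies on chromosome 5 from 120569764 to 120579292, and its exons overlap those of *Lhx5as1* on the other strand. *Lhx6*, a factor of cortical interneurons, had 92, 94 and 62 counts in Y641-F libraries, against 188, 181 and 151 counts in Control libraries (log2 fold change -0.96, standard error 0.21, edgeR adjusted p = 0.00433). *Lhx2*, a factor of forebrain, eye and hair follicle stem cells, went the other way. Its counts were 232, 413 and 118 in Y641-F libraries, against 188, 109 and 82 in Control libraries. The groups overlapped, and Y641-F replicate 2 stood above the other 5 libraries. *Lhx2* was 2.18-fold higher (log2 fold change 1.12, standard error 0.39, edgeR adjusted p = 0.045), and the adjusted p was 0.185 without Y641-F replicate 2, 0.103 without Y641-F replicate 1, 0.128 without Control replicate 2 and 0.166 without Control replicate 3. The call was also lost with upper-quartile factors (adjusted p = 0.06), a filter of at least 1 CPM (0.0541), the DESeq2 Wald test (0.128) and limma-voom (0.105). *Lhx9* and *Lhx4* were at 4 to 19 counts per library and were not called, and *Lhx1* was under the filter.

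In the family of *Six3* and *Six5*, homeodomain factors that act with Eya and Dach proteins in eye, ear, kidney and muscle, *Six3* and *Six5* were lower. *Six3*, a factor of the anterior forebrain and eye, had 0, 2 and 0 counts in Y641-F libraries, against 13, 7 and 19 counts in Control libraries. The ratio of the summed counts, scaled to library size, was 0.0549 for *Six3*, with an exact 95% interval of 0.00642 to 0.212 that covers counting error only (edgeR adjusted p = 0.00986). *Six5*, whose gene lies just beside that of the muscular dystrophy kinase *Dmpk*, had 83, 104 and 93 counts in Y641-F libraries, against 304, 239 and 209 counts in Control libraries. *Six5* was lower in every Y641-F library than in any Control library. *Six3* reached the filter level in Control libraries only, so its groups could not overlap once it was tested. *Six5* was 2.50-fold lower (log2 fold change -1.32, standard error 0.18, edgeR adjusted p = 0.000153). *Six4* had 384, 363 and 444 counts in Y641-F libraries and 566, 535 and 467 counts in Control libraries (log2 fold change -0.30, edgeR adjusted p = 0.0628). *Six4* did not pass this test, but it was called with upper-quartile factors and with a filter of at least 1 CPM. *Six2*, the nephron progenitor factor beside *Six3*, was under the filter.

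*Pax8*, the paired-box factor of thyroid, kidney and Müllerian duct, had the lowest adjusted p of the 3 higher members. Its counts were 68, 92 and 92 in Y641-F libraries, against 17, 21 and 8 in Control libraries, and the groups did not overlap. *Pax8* was at 2.56 ± 0.330 CPM in Y641-F cells and 0.433 ± 0.174 CPM in Control cells (SD, n = 3 libraries each), which was 5.84-fold higher (95% interval 3.51 to 9.73, log2 fold change 2.55, standard error 0.34, edgeR adjusted p = 0.000145). Its exons overlap those of *Gm13415* on the other strand. The other 6 tested Pax genes were near the filter and not called. *Pax6*, the eye and pancreas factor, had 12, 26 and 17 counts in Y641-F libraries and 12, 24 and 28 counts in Control libraries. *Pax2*, the closest relative of *Pax8* in kidney development, had 4, 8 and 4 counts in Y641-F libraries and 3, 8 and 2 counts in Control libraries. *Pax5*, the B-cell factor, had 2, 4 and 7 counts in Y641-F libraries and 3, 26 and 9 counts in Control libraries, with Control replicate 2 highest. *Pax9* was under the filter. *Pax8* was the only called gene of its family.

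**Figure D1:**
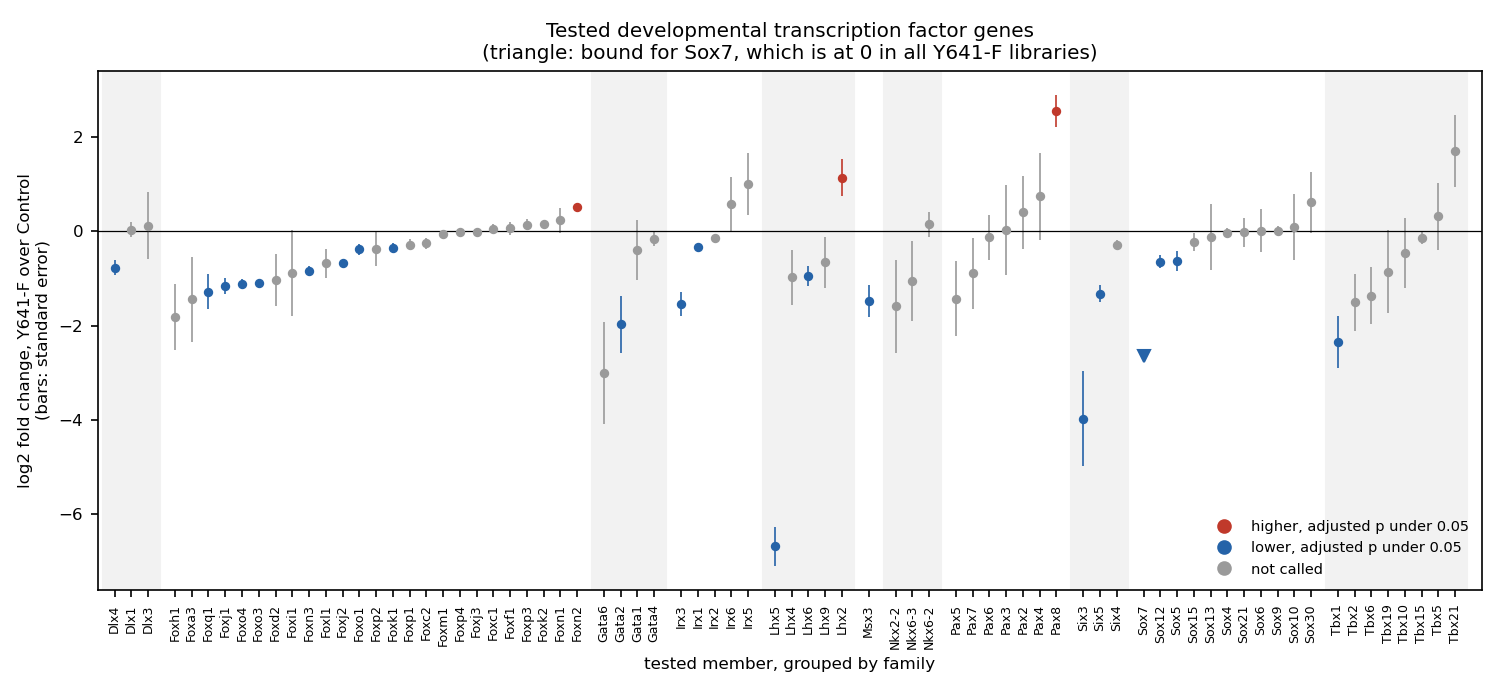
Log2 fold change of Y641-F over Control for tested members, grouped by family, 1 member not drawn, with bars for the standard error. Red points were higher and blue points lower at an adjusted p under 0.05, grey points were not called, and the triangle is the bound for *Sox7*, at a log2 fold change of -2.64. *Lhx5* is lowest at -6.68 and *Pax8* highest at 2.55.

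Of the 11 tested Sox genes, 3 were lower (27.3%) and none was higher. The share lower was 16.0% of all genes tested and 18.6% of protein-coding genes tested. The Sox share rests on 11 genes, and its difference from these shares was not tested. The abundant Sox members with roles in mammary epithelium differed little. *Sox4*, a progenitor factor and the member with the highest level per length, was at 41.9 CPM per kilobase in Y641-F cells and 42.9 CPM per kilobase in Control cells, from 6702, 6172 and 6818 counts in Y641-F libraries and 7339, 7576 and 6681 counts in Control libraries. The log2 fold change of *Sox4* was -0.03, with a 95% interval of the fold of 0.856 to 1.12. *Sox9*, a luminal progenitor and stem cell factor, had 1780, 1752 and 1652 counts in Y641-F libraries and 1888, 1984 and 1653 counts in Control libraries (log2 fold change 0.01, 95% interval of the fold 0.879 to 1.16). These intervals leave room only for small differences in both genes. *Sox12*, a relative of *Sox4* in the SoxC group, had 273, 304 and 236 counts in Y641-F libraries, against 449, 472 and 445 counts in Control libraries (log2 fold change -0.65, standard error 0.13, edgeR adjusted p = 0.00311). *Sox7*, a SoxF factor of endothelium, had no count in any Y641-F library, against 10, 6 and 4 counts in Control libraries. Against a floor of 3 counts over the group, *Sox7* was at least 6.23-fold lower (edgeR adjusted p = 0.0114). It passed the filter only through the Control libraries, so a tested *Sox7* had to differ. Its SoxF relatives *Sox17* and *Sox18* were under the filter, *Sox18* with no count in any library. *Sox5*, a SoxD factor of cartilage and neurons without a transactivation domain of its own, had 102, 90 and 126 counts in Y641-F libraries, against 174, 230 and 127 counts in Control libraries. It was 1.55-fold lower (log2 fold change -0.64, standard error 0.21, edgeR adjusted p = 0.0401). That call was lost without Control replicate 2 (adjusted p = 0.217), Control replicate 1 (0.0736) or Y641-F replicate 1, 2 or 3 (0.0929, 0.0761 and 0.0507). *Sox10*, the neural crest factor, had 3 to 9 counts in every library and was not called, and *Sox2* and *Sox11* were under the filter.

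Of the FoxO members, *Foxo1*, *Foxo3* and *Foxo4* were lower and *Foxo6* was under the filter. *Foxo3* had 1150, 1010 and 1085 counts in Y641-F libraries, against 2565, 2614 and 2333 counts in Control libraries. *Foxo4*, the X-linked FoxO gene, had 448, 426 and 475 counts in Y641-F libraries, against 1068, 1005 and 1061 counts in Control libraries. In both genes every Y641-F library lay far below every Control library. *Foxo3* was 2.16-fold lower (log2 fold change -1.11, standard error 0.09, edgeR adjusted p = 4.98e-06) and *Foxo4* was 2.17-fold lower (log2 fold change -1.12, standard error 0.10, edgeR adjusted p = 8.67e-06). *Foxo1* was lower by less, with 746, 562 and 741 counts in Y641-F libraries, against 977, 988 and 912 counts in Control libraries (log2 fold change -0.39, standard error 0.12, edgeR adjusted p = 0.0258). Its adjusted p was 0.0503 to 0.0768 when Y641-F replicate 3 or any of the 3 Control libraries was left out. Exons of *Foxo3* overlap those of *Gm66047* and exons of *Foxo1* those of *Gm20402* on the other strand, and none overlaps *Foxo4*.

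Other forkhead genes were lower as well. *Foxj1*, the master regulator of motile cilia, had 73, 88 and 82 counts in Y641-F libraries, against 193, 195 and 196 counts in Control libraries (log2 fold change -1.17, standard error 0.17, edgeR adjusted p = 0.00027). *Foxj2* had 524, 562 and 643 counts in Y641-F libraries, against 975, 1053 and 940 counts in Control libraries (log2 fold change -0.68, edgeR adjusted p = 0.000193). *Foxn3*, a repressor linked to the DNA damage checkpoint, had 577, 571 and 608 counts in Y641-F libraries, against 1027, 1239 and 1106 counts in Control libraries (log2 fold change -0.84, edgeR adjusted p = 6.84e-05). In these 3 genes the lowest Control library lay well above the highest Y641-F library. *Foxk1*, a regulator of glycolysis and autophagy genes, had 1580, 1263 and 1573 counts in Y641-F libraries, against 2106, 2026 and 1911 counts in Control libraries (log2 fold change -0.35, edgeR adjusted p = 0.0206). Without Control replicate 2 its adjusted p was 0.0571. *Foxq1*, a hair follicle and epithelial factor, had 21, 14 and 14 counts in Y641-F libraries, against 34, 54 and 41 counts in Control libraries. *Foxq1* was 2.44-fold lower (log2 fold change -1.28, standard error 0.37, edgeR adjusted p = 0.0205), and the adjusted p was 0.0719 without Y641-F replicate 3, 0.0923 without Control replicate 2 and 0.0564 without Control replicate 3. *Foxn2* was the only forkhead gene of the members called higher. It had 1125, 1096 and 1254 counts in Y641-F libraries, against 945, 906 and 779 counts in Control libraries (log2 fold change 0.50, standard error 0.09, edgeR adjusted p = 0.00121).

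Several abundant forkhead genes were not called, among them the 3 with the highest levels per length. *Foxm1*, the factor that drives mitotic genes, had 4344, 4484 and 4627 counts in Y641-F libraries and 5809, 5062 and 4240 counts in Control libraries (log2 fold change -0.06, 95% interval of the fold 0.825 to 1.11). *Foxk2* had 4105, 3761 and 4609 counts in Y641-F libraries and 4110, 4187 and 3765 counts in Control libraries (log2 fold change 0.15, edgeR adjusted p = 0.245). *Foxp4*, *Foxj3*, *Foxc1* and *Foxf1* had log2 fold changes of -0.03, -0.03, 0.05 and 0.06, all with overlapping groups. *Foxc1* is known for its expression in basal-like breast cancer, and it had 1358, 1331 and 1328 counts in Y641-F libraries and 1377, 1559 and 1221 counts in Control libraries. *Foxp1*, a factor of mammary stem cells, had a log2 fold change of -0.29 and an adjusted p of 0.0922, which was 0.0445 without Control replicate 1. *Foxc2* had a log2 fold change of -0.26 and an adjusted p of 0.105, which was 0.0247 without Y641-F replicate 2. Likewise *Foxl1* (log2 fold change -0.69, adjusted p = 0.11 by edgeR) and *Foxk2* passed without Y641-F replicate 2, at 0.0182 and 0.038. *Foxd1*, *Foxe1* and *Foxf2* were under the filter. Of the 44 Fox members, 25 were tested, and of these 8 were lower (32%), 1 was higher (4%) and 16 were not called. Among all genes tested, 16.0% were lower and 15.6% were higher.

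The T-box gene *Tbx1*, needed for the pharyngeal arches and the cardiac outflow tract, had 6, 22 and 4 counts in Y641-F libraries, against 41, 90 and 46 counts in Control libraries. The second replicate was highest in each group, and the groups did not overlap. *Tbx1* was 5.09-fold lower (log2 fold change -2.35, standard error 0.55, edgeR adjusted p = 0.00661). *Tbx15*, the T-box gene with the highest level per length, had 575, 493 and 659 counts in Y641-F libraries and 636, 681 and 720 counts in Control libraries and was not called. *Tbx2*, a repressor of senescence genes, had 2, 14 and 6 counts in Y641-F libraries and 22, 17 and 28 counts in Control libraries (log2 fold change -1.51, edgeR adjusted p = 0.0816). Without Y641-F replicate 2 its adjusted p was 0.0134. *Tbx5*, the forelimb and heart factor, had 4, 13 and 5 counts in Y641-F libraries and 9, 7 and 3 counts in Control libraries, and *Tbx3* and *Tbx4* were under the filter. *Tbx1* was the only 1 of 8 tested T-box genes with a call (12.5% lower, where 16.0% of all genes tested were lower).

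*Gata2*, a factor of haematopoietic stem cells, had 6, 3 and 3 counts in Y641-F libraries, against 25, 13 and 14 counts in Control libraries (log2 fold change -1.97, standard error 0.60, edgeR adjusted p = 0.0255). The counts were low, and the adjusted p was 0.0571 without Y641-F replicate 2, 0.084 without Y641-F replicate 3 and 0.115 without Control replicate 1. *Gata6*, an endoderm factor, had 0, 2 and 0 counts in Y641-F libraries and 10, 6 and 4 counts in Control libraries. The ratio of its summed counts was 0.107 (exact 95% interval 0.0121 to 0.441, counting error only), and it was not called (edgeR adjusted p = 0.0522). Without Y641-F replicate 2 the adjusted p of *Gata6* was 0.0181, but that fit leaves no count in Y641-F libraries. *Gata6* also passed the filter through Control libraries only, so its groups could not overlap. *Gata4*, a heart and gonad factor and the Gata member with the highest level per length, had 254, 221 and 274 counts in Y641-F libraries and 267, 305 and 324 counts in Control libraries (log2 fold change -0.17, edgeR adjusted p = 0.444). *Gata1*, the erythroid factor, had 4 to 18 counts in every library and was not called. No Gata member was higher, and 1 of the 4 tested was lower (25%, where 16.0% of all genes tested were lower).

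Iroquois, Msx and Dlx homeodomain genes pattern neural tube, limb and face. *Irx3*, also known for its role in fat and heart, had 66, 32 and 52 counts in Y641-F libraries, against 147, 155 and 167 counts in Control libraries. It was 2.91-fold lower (log2 fold change -1.54, standard error 0.26, edgeR adjusted p = 0.00082). *Irx5*, also on chromosome 8 and 555558 bases away, had 12, 11 and 5 counts in Y641-F libraries and 4, 7 and 4 counts in Control libraries, with overlapping groups and no call. The chromosome 13 gene *Irx1* had 725, 802 and 769 counts in Y641-F libraries, against 1124, 1046 and 954 counts in Control libraries (log2 fold change -0.34, standard error 0.09, edgeR adjusted p = 0.0119). Its neighbour *Irx2*, second in level per length among all members, had 2441, 2866 and 2571 counts in Y641-F libraries and 3432, 3226 and 2746 counts in Control libraries (log2 fold change -0.15, edgeR adjusted p = 0.238). The 2 called Iroquois genes, of 5 tested, were both lower (40%, where 16.0% of all genes tested were lower). *Msx3*, a dorsal neural tube gene, had 14, 26 and 20 counts in Y641-F libraries, against 57, 77 and 46 counts in Control libraries (log2 fold change -1.48, standard error 0.34, edgeR adjusted p = 0.0055), while *Msx1* and *Msx2* were under the filter. *Dlx4*, linked to placenta and to breast tumours, had 143, 151 and 121 counts in Y641-F libraries, against 255, 291 and 218 counts in Control libraries (log2 fold change -0.77, standard error 0.16, edgeR adjusted p = 0.00356). *Dlx1*, an interneuron factor, had 233, 213 and 219 counts in Y641-F libraries and 269, 200 and 229 counts in Control libraries (log2 fold change 0.03). *Dlx3* was near the filter with no call, and *Dlx2*, *Dlx5* and *Dlx6* were under it. Of the 14 Nkx genes 3 were tested and none was called. *Nkx6-2*, a spinal cord factor with the highest level per length of them, had 55, 94 and 61 counts in Y641-F libraries and 83, 65 and 56 counts in Control libraries. *Nkx2-2* had 0, 6 and 1 counts in Y641-F libraries and 6, 4 and 13 counts in Control libraries (edgeR adjusted p = 0.255, and 0.044 without Y641-F replicate 2). *Nkx2-1* and *Nkx2-5* were under the filter.

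**Figure D2:**
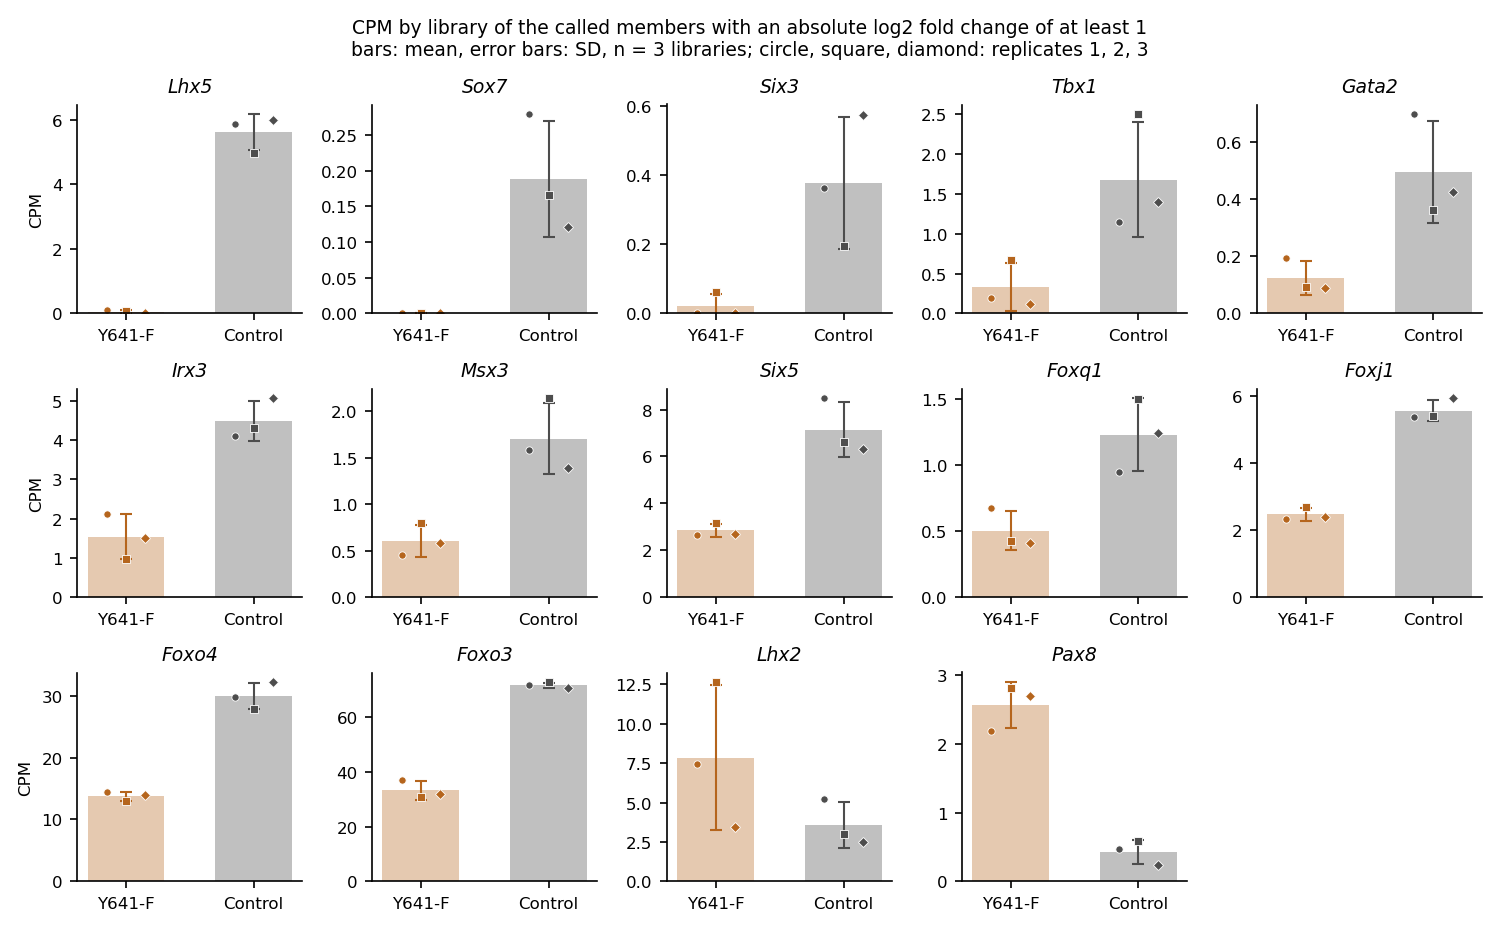
CPM in each library for the 14 called members that differed at least 2-fold, Y641-F left and Control right, each panel with its own axis from 0. Bars are means, error bars are SD (n = 3 libraries) and symbols are replicates 1, 2 and 3. Only *Lhx2* shows overlap between the groups, and *Pax8* is the only other gene with the Y641-F bar on top. Genes were drawn because they were called, so little overlap follows from the choice. *Lhx5*, *Six3* and *Sox7* passed the filter through Control libraries only, which fixes their order.

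Some members share exons with noncoding genes read from the other strand that carry their names, and since no source used here gives the strand setting of the counting, reads of such a pair may not be separated. In GENCODE vM39, exons of 72 of the 133 members overlap exons of a gene on the other strand, as do those of 15 of the 24 called members, the 9 others being *Foxj1*, *Foxk1*, *Foxn2*, *Foxo4*, *Irx1*, *Lhx6*, *Msx3*, *Sox12* and *Sox7*. *Irx3os*, beside *Irx3*, had 68, 44 and 72 counts in Y641-F libraries, against 189, 206 and 187 counts in Control libraries (log2 fold change -1.56, standard error 0.21, edgeR adjusted p = 0.00016). *Six3os1*, beside *Six3*, had 0, 2 and 0 counts in Y641-F libraries, against 11, 5 and 5 counts in Control libraries. The ratio of its summed counts was 0.102 (exact 95% interval 0.0116 to 0.417, counting error only, edgeR adjusted p = 0.047). Both noncoding genes were called lower, as were the members they are named after. *Six3* and *Six3os1* passed the filter through Control libraries only, so the order of their groups was fixed by the filter. *Dlx4os* had 97, 123 and 82 counts in Y641-F libraries and 152, 192 and 137 counts in Control libraries, without overlap, and missed the threshold (log2 fold change -0.57, edgeR adjusted p = 0.0563). *Dlx1as* and *Pax6os1* had log2 fold changes of 0.07 and 0.11 and were not called. *Pax6os1* had 1918 to 2142 counts in Y641-F libraries and 1907 to 2072 counts in Control libraries.

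**Figure D3:**
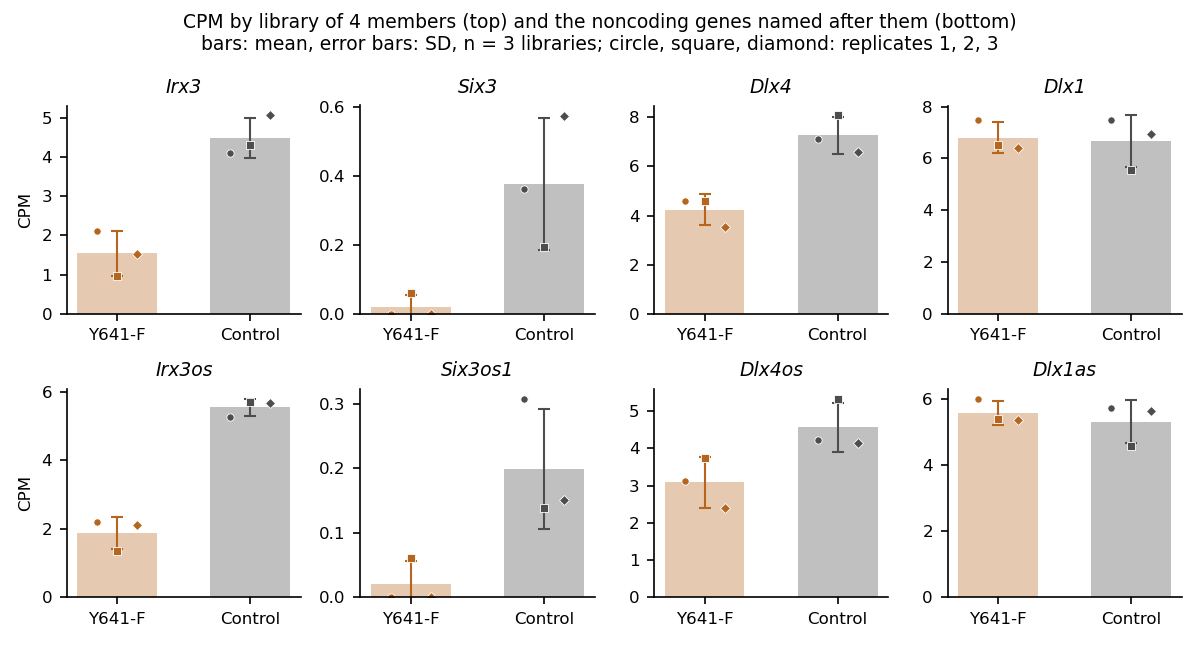
CPM in each library for *Irx3*, *Six3*, *Dlx4* and *Dlx1* (top) and the noncoding genes named after them (bottom), Y641-F left and Control right. Bars are means, error bars are SD (n = 3 libraries) and symbols are replicates 1, 2 and 3. The Y641-F libraries lie below the Control libraries in the first 3 pairs and overlap with them in the *Dlx1* and *Dlx1as* pair. *Six3* and *Six3os1* passed the filter through Control libraries only, which fixes this order for them.

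Members within 200 kb of each other formed 14 clusters with 33 members, and 4 of the 24 called members lay in them (*Dlx4*, *Foxq1*, *Six3* and *Six5*), 3 of these beside a tested member without a call. In the chromosome 13 cluster, *Foxq1* was lower, *Foxc1* had a log2 fold change of 0.05 and *Foxf2* was under the filter. In the chromosome 11 pair 15151 bases apart, *Dlx4* was lower and *Dlx3* had 4, 8 and 15 counts in Y641-F libraries and 8, 3 and 15 counts in Control libraries. In the chromosome 8 cluster of *Foxf1*, *Foxc2* and *Foxl1*, the log2 fold changes were 0.06, -0.26 and -0.69, and none was called. No cluster held more than 1 called member. Of the 48 nearest protein-coding genes on either side of the 24 called members, 40 were tested, of which 9 were called in the direction of the member, 6 in the other direction and 25 were not called. These are 22.5% and 15% of the 40, where 18.6% of all tested protein-coding genes were lower and 18.1% were higher. The neighbours named next were chosen after their values were seen. *Dmpk*, 439 bases from *Six5*, was lower with a log2 fold change of -1.35 (edgeR adjusted p = 0.000224). *Rbm19* beside *Lhx5* and *Pinx1* beside *Sox7* were higher, with log2 fold changes of 0.92 and 1.03 (edgeR adjusted p = 6.00e-05 and 2.02e-05). *Tbx1* had a neighbour called in each direction, *Septin5* with a log2 fold change of -1.86 and *Gnb1l* with 0.71.

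Calls were also counted by level. Among the 34 members with a mean count of at least 100, 14 were lower (41.2%) and 2 were higher (5.88%), against 22.2% lower and 23.5% higher of the 12595 genes at that count. Among the 42 tested members under a mean count of 100, 7 were lower (16.7%) and 1 was higher (2.38%), against 6.91% and 3.72% of such genes. Of the 76 tested members, 4 reached the filter level of 0.1 CPM in Control libraries only, and 3 of these were called lower (*Lhx5*, *Six3* and *Sox7*). *Gata2* reached it in all 3 Control libraries and in part of the Y641-F libraries. Such members passed through the group where they were high, so the counts at low level are a description only. The median log2 fold change of the 76 tested members was -0.35, against -0.01 for all genes tested, with 53 members below 0 and 23 above. It was the same with *Sox7* at its bound. The study's thresholds were a 2-fold difference (1 on the log2 scale) and an unadjusted p up to 0.05. By these, 16 members were lower and 3 were higher, where 5.76% and 3.40% of all genes tested were. *Tbx21*, the T-helper factor, was higher by those thresholds only, with 4, 8 and 7 counts in Y641-F libraries and 2, 2 and 2 counts in Control libraries (log2 fold change 1.69, edgeR adjusted p = 0.115). *Tbx21* reached the filter level in Y641-F libraries only, so the order of its groups was fixed by the filter. At the adjusted p, 17 members were lower and 2 higher without Control replicate 2, and 17 were lower and 3 higher without Y641-F replicate 3. No member under the filter exceeded 12 counts in a library, and 7 of the 57 had no count at all.

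**Figure D4:**
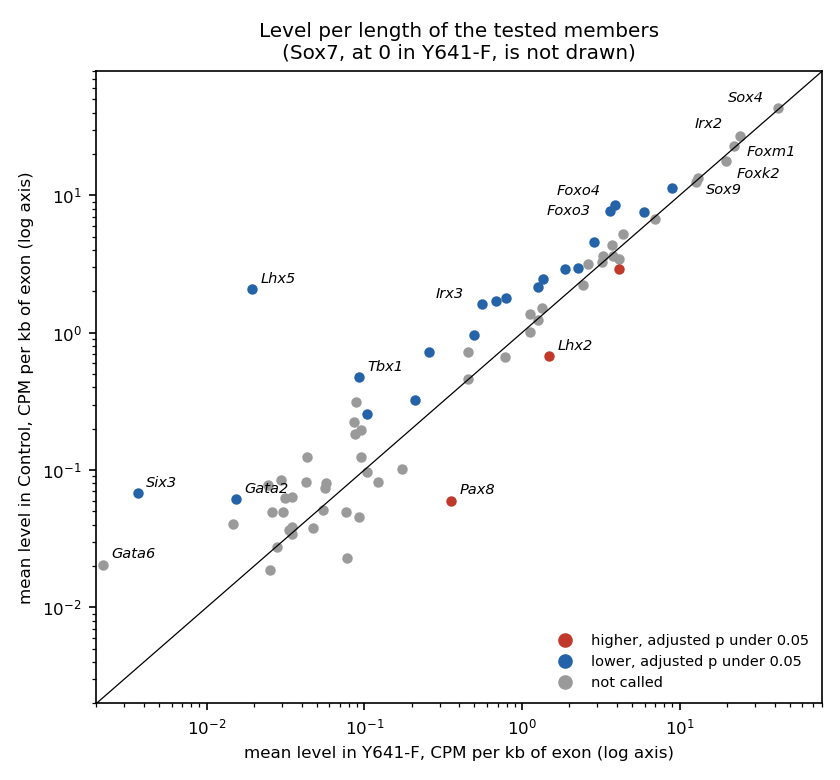
Mean level of the tested members in CPM per kilobase of exon, Y641-F on the x axis and Control on the y axis, both log axes, with a line at equality. Points above the line are lower in Y641-F cells. *Sox4*, *Irx2*, *Foxm1* and *Foxk2* lie close to the line at the top, while *Lhx5* and *Six3* lie far above it and *Pax8* below it.

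Co-factors of the member proteins were followed as lists. Eya and Dach proteins are co-factors of *Six4* and *Six5*, and of the 6 genes tested, 3 were lower and 0 were higher. *Dach1* had 26, 28 and 12 counts in Y641-F libraries, against 66, 70 and 39 counts in Control libraries (log2 fold change -1.28, edgeR adjusted p = 0.023), *Dach2* had a log2 fold change of -1.02 and *Eya2* of -0.70. This count was 1 without Y641-F replicate 3 or without Control replicate 2, and 2 without Control replicate 1. Ldb and Lmo adaptors bridge LIM-homeodomain and Gata factors, and Zfpm proteins bind Gata factors. Of these 8 genes 3 were lower and 1 was higher, with the lowest value for *Lmo2*, the adaptor of blood and endothelium, at 14, 28 and 13 counts in Y641-F libraries, against 176, 165 and 151 counts in Control libraries (log2 fold change -3.05, standard error 0.29, edgeR adjusted p = 1.29e-05). *Zfpm1* had a log2 fold change of -0.95 and *Lmo4* of -0.27, and *Zfpm2* was higher at 0.50. The higher call was lost without Y641-F replicate 1, Y641-F replicate 3 or Control replicate 3 (0 in each), and the lower calls were 2 without Y641-F replicate 3 or without Control replicate 2. Some Groucho/TLE proteins are co-repressors recruited by Pax, Nkx and Fox proteins. Of the 6 genes of this family, which need not all act in this way, 2 were lower and 0 were higher. *Tle2* had 86, 152 and 111 counts in Y641-F libraries, against 616, 435 and 438 counts in Control libraries (log2 fold change -1.99, edgeR adjusted p = 2e-05), and *Tle6* had a log2 fold change of -1.91. Pbx and Meis proteins are TALE homeodomain co-factors. Of 9 genes 3 were lower and 0 were higher, namely *Meis2* (log2 fold change -0.97), *Pbx2* (-0.89) and *Meis1* (-0.68). The share lower was 16.0% of all genes tested, as above, and 22.2% of those with a mean count of at least 100.

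Genes commonly given as FoxO targets were followed beside genes commonly given as FoxM1 targets. Of 25 FoxO target genes, 22 were tested, 13 were lower (59.1%) and 1 was higher (4.55%), with a median log2 fold change of -0.42, where 16.0% and 15.6% of all genes tested, and 22.2% and 23.5% of those with a mean count of at least 100, were lower and higher. *Klf2*, a quiescence factor of endothelium and T cells, had 46, 129 and 72 counts in Y641-F libraries, against 362, 383 and 352 counts in Control libraries (log2 fold change -2.06, edgeR adjusted p = 0.000125). *Txnip*, an inhibitor of thioredoxin and glucose uptake, had 899, 1072 and 993 counts in Y641-F libraries, against 2756, 2724 and 2548 counts in Control libraries (log2 fold change -1.34, edgeR adjusted p = 7.55e-07). *Fbxo32*, the atrophy ubiquitin ligase, and *Sesn3*, a stress-induced inhibitor of growth signalling, had log2 fold changes of -1.06 and -1.11. *Sod2*, the mitochondrial superoxide dismutase, was the higher gene at 0.46. *Bnip3* and *Ccng2*, at -2.76 and -2.12, are among the genes that the study chose on these libraries, so they are no independent evidence of the direction of the list. *Bnip3* is also a classical target of hypoxia-inducible factor, and *Ccng2* and *Txnip* are known to respond to other signals than FoxO. The part of FoxO or of any other signal in these values was not tested. Of 20 FoxM1 target genes, all tested, 5 were lower (25%) and 4 were higher (20%), with a median log2 fold change of -0.02, which are shares near those of the 12595 genes averaging 100 counts or more. With no filter 8 were lower. *Cdc25b*, a phosphatase that starts mitosis, was lower at -0.61, and *Cenpa*, the centromeric histone, was higher at 0.42. Without Control replicate 2 none of the FoxM1 targets was called higher by edgeR, and without Y641-F replicate 3, Control replicate 1 or Control replicate 3 there were 2. The difference between these lists was not tested.

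**Figure D5:**
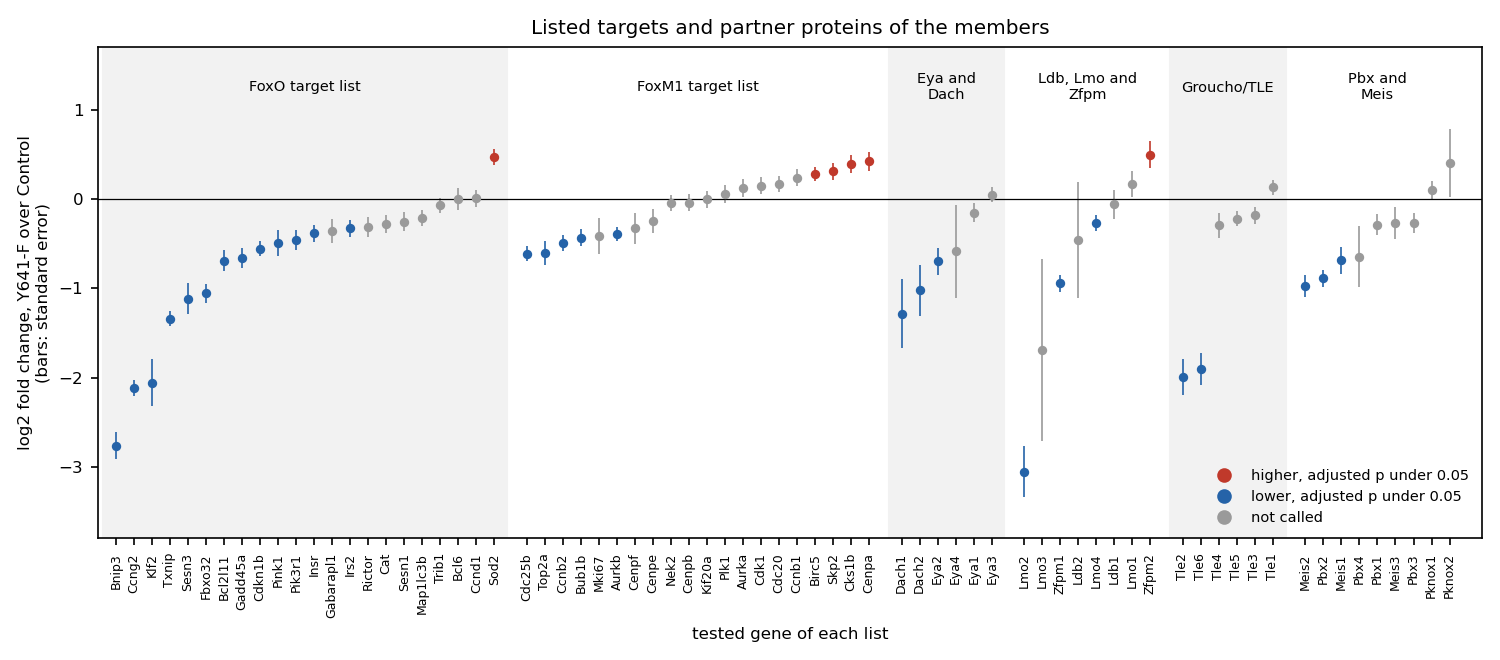
Log2 fold change of Y641-F over Control for the tested genes of the FoxO and FoxM1 target lists and of 4 groups of co-factors, with bars for the standard error and colours for the call at an adjusted p under 0.05. The FoxO list has 13 blue points and 1 red point, and the FoxM1 list 5 and 4. *Lmo2* is the lowest of the co-factors at -3.05.

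*Foxa1* and *Gata3*, which were left out of the members, differed in opposite directions. *Foxa1*, a luminal pioneer factor, had 176, 194 and 188 counts in Y641-F libraries, against 136, 161 and 117 counts in Control libraries (log2 fold change 0.53, edgeR adjusted p = 0.0249). *Gata3*, the luminal identity factor, had 1442, 1715 and 1411 counts in Y641-F libraries, against 2401, 2268 and 2000 counts in Control libraries (log2 fold change -0.44, edgeR adjusted p = 0.00483). The groups did not overlap in either gene.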

How the data were processed

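RNA was isolated by the authors with TRIzol, made into libraries (NEBNext Ultra II) and read on a NovaSeq. Per the submitters' processing notes, fastp 0.20.1, STAR 2 with GRCm39 and featureCounts 2.0.1 gave the deposited values, which are raw counts per gene, whole numbers without normalization. Annotation and strand setting were not given in the sources used here. Library totals limit precision for genes of few counts.

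Counts were analysed with edgeR 4.0.16 in R 4.3.3, with DESeq2 1.42.0 and limma 3.58.1 as alternatives. The filter of the study kept genes at 0.1 CPM or more in 3 libraries or more. Kept genes were scaled by TMM and compared with the quasi-likelihood test, with p-values adjusted over all 21043 genes kept. Log2 fold changes are Y641-F over Control, and intervals are 95%. Floors were 3 counts. Lengths, positions and overlaps are from GENCODE vM39 on GRCm39. Members, gene lists and alternatives were chosen with earlier results of these data known. Named members were all called ones, the most abundant per length of each family and a list. No libraries of 1 group had identical counts. The procedure was tested on simulated data. Results of some members are not reported here.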

Additional observations from a re-analysis of the deposited data

How the results depend on the processing

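Of the 24 called members, 16 were called under all 15 alternatives (2 other scalings, 3 other filters, 3 other tests, a replicate block and 6 fits with 1 library left out). The other 8 were *Six3* and *Sox7*, which were called wherever an adjusted p was given, and 6 that missed the threshold under at least 1 alternative. Counts of lower members were 17 to 24 and of higher members 2 to 4. The median log2 fold change of the tested members was -0.56 with no filter on low counts. By the study's thresholds, 9 members were lower with a filter of at least 1 CPM, which leaves fewer genes, and 1 was higher by the DESeq2 Wald test and by limma-voom, where the cause was not tested. With each library left out in turn, the higher count by those thresholds was 1 to 3, with 1 without Y641-F replicate 2 and 1 without Control replicate 3. No called member changed direction. Named members without a call were checked for direction only where an alternative called them. The correlations of deviations between libraries of the same replicate number were -0.0705, -0.00402 and 0.102. Those between libraries of different numbers were -0.0988 to 0.103. These values gave no sign that the numbers pair the samples, but with 3 libraries per group they cannot exclude it. With the replicate block 21 members were lower, 3 were higher and the median was -0.35, *Sox5* missed the threshold (adjusted p = 0.0666 by edgeR), and 7 FoxM1 targets were lower. Members with under about 10 counts per library could be called only for large differences.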
